A study of Mus musculus with 10 samples.

Results

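The genes described here make cholesterol, control its supply and move it out of the cell. They were a list of 31 named mouse genes, found by matching the Ensembl identifiers of the deposited table to mouse gene symbols, and all 31 were present among 38887 identifiers. By role they comprised 19 synthesis enzymes, 5 genes of the SREBP control system, 4 genes of uptake control, transport and storage, and 3 genes of efflux. All 31 passed the filter on low counts and entered the test, among 14346 genes in all. RNA was sequenced from hematopoietic progenitor cells of mouse bone marrow. The CK2i group (5 libraries) came from mice given the CK2 inhibitor BMS-595 at 60 mg/kg for 2 weeks, and the vehicle group (5 libraries), titled untreated, from mice given vehicle. Every mouse in both groups bore a Lewis lung carcinoma, a transplantable tumour, so no library shows progenitors of tumour-free marrow. The sources used here give neither the genetic background nor the age of the mice, and do not say that each library came from its own mouse. The p-values below therefore measure the spread between these libraries, which may be technical.

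Cells build cholesterol from acetyl-CoA in a chain of enzymes that runs through mevalonate, the isoprenoid diphosphates, squalene and lanosterol. When membrane sterol is scarce, the escort protein encoded by Scap carries the transcription factors encoded by Srebf1 and Srebf2 to the Golgi, where they are cut and released to raise the genes of synthesis and uptake. Insig proteins hold that complex back when sterol is plentiful. Surplus cholesterol is esterified by Soat1 or exported by Abca1 and Abcg1 to acceptors such as apolipoprotein E, and in marrow progenitors such export is known to restrain proliferation of stem and myeloid cells. The comparison asks how these transcripts differed after inhibition of the kinase CK2 in the animal.

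Total estimated counts were 34127674 to 40811539 in CK2i libraries and 37569160 to 43636152 in vehicle libraries. Values per library are CPM, counts scaled to the size of the library, with TMM scaling, and levels compared between genes are FPKM, which divide by transcript length. The progenitor label was set against 8 markers. All 8 were measured, and their summed level was 1196 to 1311 CPM in CK2i libraries and 1134 to 1369 CPM in vehicle libraries. Kit, the stem cell factor receptor that marks progenitors, alone among the 8 passed the test, where 13.2% of all tested genes passed. Kit was lower in CK2i, at 225 ± 19.2 CPM in CK2i libraries and 269 ± 16.0 CPM in vehicle libraries (SD, n = 5 each, edgeR adjusted p = 0.0302). Ly6g, which defines mature neutrophils, had between 0 and 2 counts in every library. CK2i 2 and CK2i 5 stood apart from the other 8 libraries on the first principal component of all genes, at -43.3 and -43.7. The other CK2i libraries ran from -12.5 to 4.10 there and the vehicle libraries from 9.37 to 29.6. The members and pathway genes that passed are given below with and without CK2i 2 and CK2i 5.

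In CK2i libraries the transcript of apolipoprotein E was lower and that of the cholesterol esterifying enzyme Soat1 higher than in vehicle libraries, and the sterol reductase gene Tm7sf2 passed the test narrowly as lower. No other member passed. That is 3 of 31 members (9.68%) at an edgeR adjusted p under 0.05, where 13.2% of all tested genes passed, so the share of members called did not exceed the background. By direction 1 member was higher and 2 were lower, against 6.43% and 6.76% of all tested genes. The groups did not overlap for these same 3 members, and they did not overlap for 10.9% of all tested genes. The sign of the difference was more one-sided: 27 of 31 members had a log2 difference below 0, against 50.2% of all tested genes, with a median of -0.22 over members and 0.00 over all genes. That count was 24 by limma on FPKM and 19 with 1 surrogate variable in the fit. The surrogate variable correlated with the group at -0.70. What it removes, here and below, therefore cannot be told apart from a difference between the groups. Members are measured in the same 10 libraries and many move together there, so the count is a description and not evidence from independent genes.

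**Figure D1:**
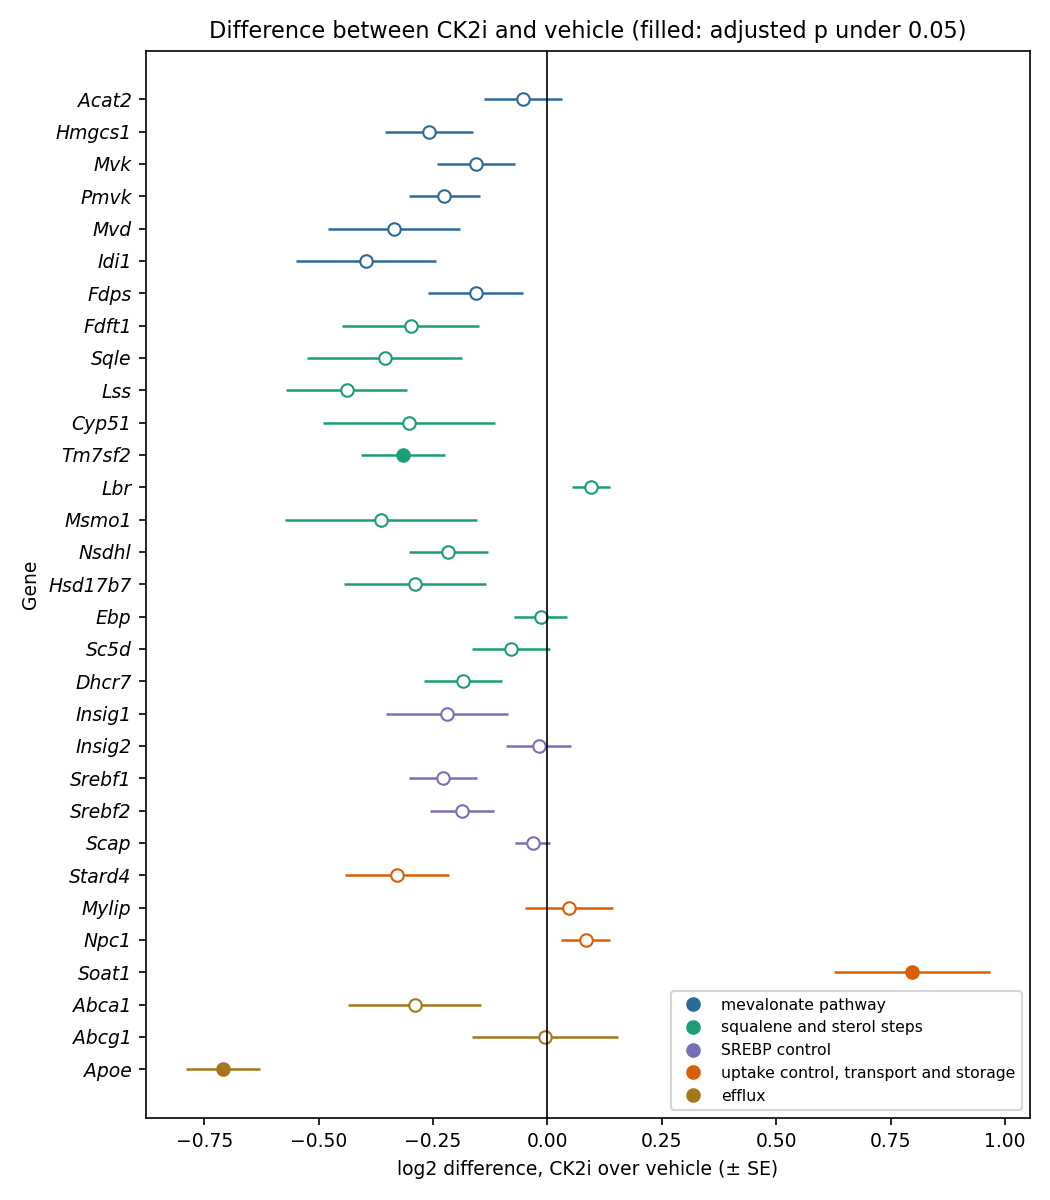
Log2 difference between CK2i and vehicle libraries for each of the 31 genes (x axis, CK2i over vehicle, edgeR estimate with bars of ± SE, 5 libraries per group), with genes on the y axis by role. Filled points passed an adjusted p under 0.05: Apoe at -0.71, Soat1 at 0.80 and Tm7sf2 at -0.32; open points did not.

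Apoe encodes apolipoprotein E, a lipid-binding protein that takes up exported cholesterol and is abundant in macrophages and liver. The gene (ENSMUSG00000002985, protein coding) lies on GRCm38 chromosome 7 at 19696109 to 19699188, minus strand. Apoe was at 52.4, 47.4, 64.5, 47.8 and 51.6 CPM in CK2i libraries 1 to 5, against 91.8, 82.3, 85.4, 81.0 and 90.4 CPM in vehicle libraries 1 to 5. Every CK2i library lay below every vehicle library, with a gap between 64.5 CPM in CK2i 3 and 81.0 CPM in vehicle 4. The means were 52.7 ± 6.91 CPM in CK2i libraries and 86.2 ± 4.80 CPM in vehicle libraries (SD, n = 5 each), and Apoe fell by 0.71 ± 0.08 on the log2 scale (SE, edgeR adjusted p = 0.00241), a change of -38.8%. Apoe passed in each of the 10 fits that left out 1 library, with log2 differences of -0.79 to -0.67 and edgeR adjusted p of 0.000409 to 0.0113. With the CK2i group reduced to libraries 1, 3 and 4 the fall was 0.65 ± 0.09 (edgeR adjusted p = 0.0229), and with 1 surrogate variable it was 0.54 ± 0.08 (edgeR adjusted p = 0.0365). No other member passed in all of these fits.

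Markers of other cell types were also compared between the groups, where 6.43% of all tested genes passed as higher and 6.76% as lower. Of 12 macrophage markers tested, 1 passed, Adgre1, which encodes the antigen F4/80, and it was higher in CK2i. Their summed level was 64.6 to 171 CPM in CK2i libraries and 44.6 to 105 CPM in vehicle libraries, while Timd4 and Marco were too low to test. Of 8 megakaryocyte and platelet markers, 4 were lower (Ppbp, Tubb1, Treml1 and Gp9), with sums of 1239 to 2642 CPM in CK2i libraries and 2201 to 3453 CPM in vehicle libraries. None of 10 stromal and endothelial markers passed edgeR's test at an adjusted p of 0.05. At an unadjusted p under 0.05, 3 of them were lower, against 16.6% of all tested genes. The list's sums were 482 to 942 CPM in CK2i libraries and 714 to 1147 CPM in vehicle libraries. They were led by Vwf, which megakaryocytes also express. The part of these markers in the Apoe result was not tested. In bulk libraries, fewer cells of a type and less RNA per cell cannot be told apart. Apoc1, the apolipoprotein gene next to Apoe, was near the detection limit at 0.216 ± 0.0659 CPM in CK2i libraries and 0.453 ± 0.216 CPM in vehicle libraries and did not pass (SD, n = 5 each, edgeR adjusted p = 0.0774).

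**Figure D2:**
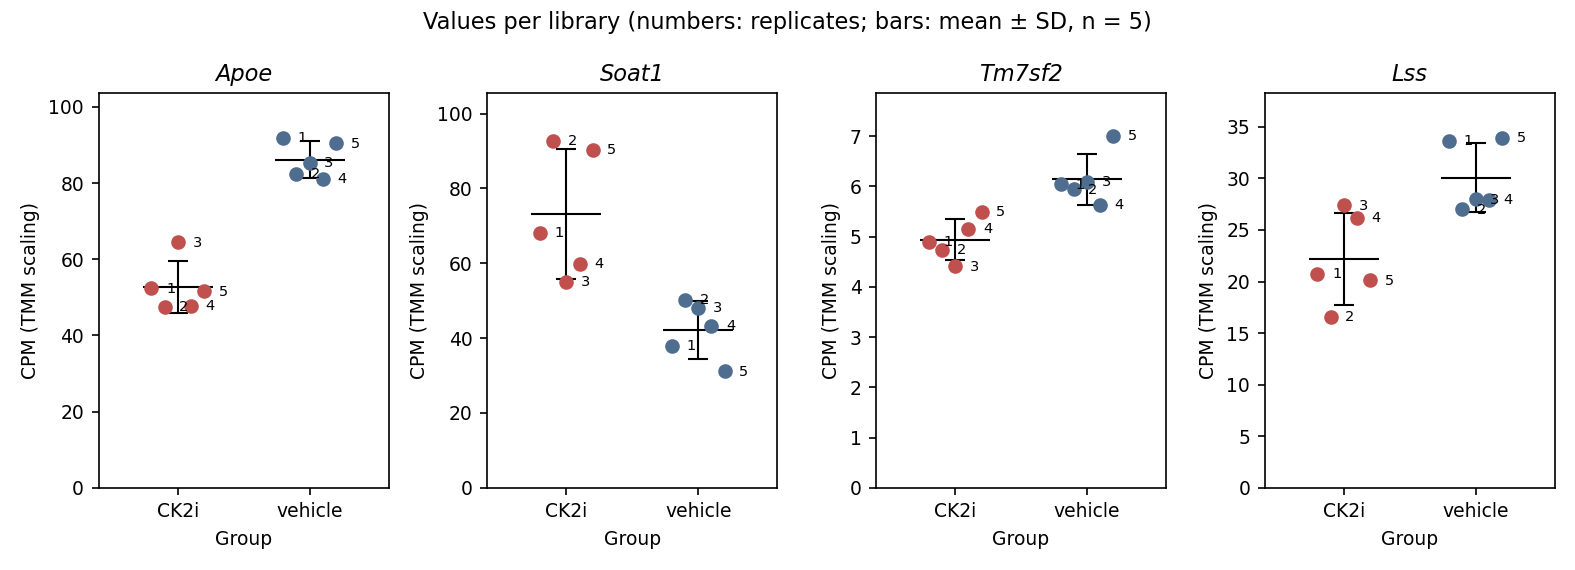
CPM with TMM scaling (y axis, from 0) of Apoe, Soat1, Tm7sf2 and Lss in each library of the CK2i and vehicle groups (x axis); points are libraries numbered by replicate, and bars are the mean ± SD of 5 libraries. Apoe, Soat1 and Tm7sf2 do not overlap between groups, whereas Lss does, with 27.4 CPM in CK2i 3 and 27.0 CPM in vehicle 2.

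Abca1 and Abcg1 encode the transporters that load cholesterol onto apolipoproteins and lipoprotein particles. Neither passed. Abca1 ranged from 9.65 to 15.0 CPM in CK2i libraries and from 12.1 to 17.5 CPM in vehicle libraries and differed by -0.29 ± 0.15 on the log2 scale (SE, edgeR adjusted p = 0.179). Abcg1 differed by -0.01 ± 0.16 (SE, edgeR adjusted p = 0.985). Its CK2i libraries spread from 14.1 CPM in CK2i 1 to 26.8 CPM in CK2i 5, on both sides of the vehicle range of 17.4 to 22.5 CPM. The coefficient of variation of Abcg1 was 26.6% in CK2i libraries and 9.0% in vehicle libraries. Within efflux 1 of 3 genes passed as lower, the acceptor gene Apoe, against 6.76% of all tested genes. All 3 differences were below 0, as were 50.2% of those of all tested genes. That of Abcg1 was -0.01 and changed sign in 4 of the alternative fits.

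Soat1 encodes the acyltransferase of the endoplasmic reticulum that turns free cholesterol into cholesteryl ester for storage in droplets, and it is the main such enzyme of macrophages. The gene (ENSMUSG00000026600) lies on GRCm38 chromosome 1 at 156424525 to 156474331, minus strand. Soat1 was at 68.1, 92.7, 55.1, 59.9 and 90.4 CPM in CK2i libraries 1 to 5, against 38.0, 50.3, 48.1, 43.3 and 31.1 CPM in vehicle libraries 1 to 5. All CK2i libraries were above all vehicle libraries, and CK2i 2 and CK2i 5 were the highest. The means were 73.2 ± 17.4 CPM in CK2i libraries and 42.2 ± 7.78 CPM in vehicle libraries (SD, n = 5 each), and Soat1 rose by 0.80 ± 0.17 on the log2 scale (SE, edgeR adjusted p = 0.0213), or by 73.7%. The call was kept in 8 of 10 fits without 1 library and was lost without CK2i 5 (log2 0.71, edgeR adjusted p = 0.0540) and without vehicle 1 (log2 0.76, edgeR adjusted p = 0.0556). With the CK2i group reduced to libraries 1, 3 and 4 the log2 difference was 0.53 (edgeR adjusted p = 0.0951), and with 1 surrogate variable it was 0.31 (edgeR adjusted p = 0.382).

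The 2 libraries highest in Soat1 were also the highest in macrophage markers of the 10 libraries. The mean log2 difference of the macrophage markers from the vehicle mean was 0.95 in CK2i 2 and 1.13 in CK2i 5, and 0.03, -0.16 and 0.79 in CK2i 1, 3 and 4, with vehicle libraries at -0.80 to 0.55. The match did not extend to all libraries. CK2i 4 was above CK2i 1 in these markers but below it in Soat1. Vehicle 1, at 0.55, was the highest vehicle library in these markers and vehicle 3, at -0.80, the lowest, yet Soat1 was lower in vehicle 1 than in vehicle 3. Of 8 neutrophil markers tested, 2 were higher in CK2i, S100a8 and Mmp8, against 6.43% of all tested genes. The list's sums were 32.7 to 99.2 CPM in CK2i libraries and 21.4 to 56.4 CPM in vehicle libraries. Over these 8 markers, 7 log2 differences were above 0 and 1 was below 0. The part of the macrophage and neutrophil markers in the Soat1 difference was not tested. Soat2, which encodes the enzyme of the same reaction known from intestine and liver, was at 10.4 ± 1.46 CPM in CK2i libraries and 11.3 ± 0.604 CPM in vehicle libraries and did not pass (SD, n = 5 each, edgeR adjusted p = 0.388). In FPKM, Soat1 exceeded Soat2 by 2.09 to 4.49 times in CK2i libraries and by 1.15 to 2.06 times in vehicle libraries; this pair was set side by side after the values were seen.

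Among the other genes of uptake and transport, Stard4, which encodes a carrier that shuttles sterol between membranes and is a known SREBP target, was at 37.5 to 48.4 CPM in CK2i libraries and 43.5 to 64.2 CPM in vehicle libraries. Its log2 difference of -0.33 ± 0.11 did not pass (SE, edgeR adjusted p = 0.0722), while DESeq2 called it lower (DESeq2 adjusted p = 0.0356). Npc1, the lysosomal membrane protein that releases cholesterol from endocytosed lipoproteins, differed by 0.08 ± 0.05 (SE, edgeR adjusted p = 0.287). Mylip, a sterol-induced ubiquitin ligase that directs lipoprotein receptors to degradation, differed by 0.05 ± 0.10 (SE, edgeR adjusted p = 0.754). The uptake and storage group thus held 1 call in 4 genes, the rise of Soat1, where 6.43% of all tested genes passed as higher.

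Tm7sf2 (ENSMUSG00000024799, GRCm38 chromosome 19, 6062821 to 6068373, minus strand) encodes one of a pair of enzymes that can reduce the sterol made by the Cyp51 step. Its level was low, at 4.89, 4.73, 4.41, 5.15 and 5.49 CPM in CK2i libraries 1 to 5, against 6.04, 5.94, 6.08, 5.64 and 7.0 CPM in vehicle libraries 1 to 5. The groups did not overlap, but CK2i 5 and vehicle 4 lay close together. Tm7sf2 fell by 0.32 ± 0.09 on the log2 scale (SE, edgeR adjusted p = 0.0452). The call was lost in each of the 10 fits without 1 library (edgeR adjusted p = 0.0537 to 0.10) and by limma on log2(FPKM + 1), which gave -0.12 (limma adjusted p = 0.304). With the CK2i group reduced to libraries 1, 3 and 4 the Tm7sf2 difference was -0.35 and did not pass (edgeR adjusted p = 0.123). Its annotation shares 532 of 4403 exonic bases with Vps51 on the same strand, so reads in that stretch cannot be assigned with certainty; Vps51 itself differed by 0.01 ± 0.04 (SE, edgeR adjusted p = 0.863).

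Lbr encodes the lamin B receptor, an inner nuclear membrane protein that carries the same sterol reductase activity and shapes the nucleus of maturing neutrophils. It had the highest FPKM of the 31 genes in both groups, at 124 ± 4.89 in CK2i libraries and 115 ± 5.00 in vehicle libraries (SD, n = 5 each). Its log2 difference was 0.10 ± 0.04 and did not pass (SE, edgeR adjusted p = 0.137). Lbr was the only enzyme of the 19 with a difference above 0. In FPKM, Lbr exceeded Tm7sf2 by 19.2 to 24.5 times in CK2i libraries and by 16.6 to 20.6 times in vehicle libraries, so the transcript of Tm7sf2 was the minor one of the pair in all 10 libraries.

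The remaining steps from acetyl-CoA to cholesterol did not pass one by one, yet most had lower means in CK2i libraries. Of 7 mevalonate pathway genes none passed edgeR's test at an adjusted p of 0.05 and 4 were lower at an unadjusted p under 0.05, with a median log2 difference of -0.23. DESeq2 called 1 of them, Pmvk. Of 12 genes of the squalene and sterol steps Tm7sf2 alone passed, with a median of -0.29. Over all 19 enzymes, 18 had differences below 0, with a median of -0.26 against 0.00 over all genes tested. At an unadjusted p under 0.05, 7 enzymes were lower and 1 was higher, and among all 31 members 11 were lower and 2 higher, where 16.6% and 17.9% of all tested genes were lower and higher by that criterion. The 13 members under that p became 7 without vehicle 1, 8 without CK2i 2 and 8 without vehicle 5. Members under that p numbered 19 without CK2i 3, 16 without vehicle 3, and 15 without vehicle 2, without vehicle 4 or by DESeq2. They became 6 with the CK2i group reduced to libraries 1, 3 and 4, and 4 with 1 surrogate variable. The share of all tested genes under that p is given for the reported fit only, so these shifts are not shown to be particular to the members. All genes passing at an adjusted p under 0.05 also varied over these fits, from 30 with 1 surrogate variable to 3198 without CK2i 3.

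Within the mevalonate pathway, Idi1, the isopentenyl diphosphate isomerase, had the largest difference at -0.40 ± 0.15 (SE, edgeR adjusted p = 0.0974). It ran from 25.8 to 34.3 CPM in CK2i libraries and from 30.0 to 53.5 CPM in vehicle libraries, and the ranges overlapped. Hmgcs1, the synthase that makes the precursor of mevalonate, differed by -0.26 ± 0.10 (SE, edgeR adjusted p = 0.0879). It was at 42.6, 37.0, 47.9, 42.4 and 42.2 CPM in CK2i libraries 1 to 5, against 60.8, 45.0, 46.5, 45.4 and 55.9 CPM in vehicle libraries 1 to 5. Only CK2i 3 among treated libraries reached the vehicle range. The decarboxylase gene Mvd and the phosphomevalonate kinase gene Pmvk differed by -0.34 ± 0.14 and -0.23 ± 0.08 (SE, edgeR adjusted p = 0.126 and 0.0743). Mvk, mevalonate kinase, and Fdps, farnesyl diphosphate synthase, both differed by -0.16, and Acat2, the cytosolic thiolase that starts the chain, by -0.05 (edgeR adjusted p = 0.214, 0.302 and 0.683).

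After farnesyl diphosphate, Lss, the lanosterol synthase that closes the sterol rings, came nearest to the threshold of the genes that missed it. Lss was at 20.8, 16.6, 27.4, 26.1 and 20.1 CPM in CK2i libraries 1 to 5, against 33.6, 27.0, 28.0, 27.9 and 33.9 CPM in vehicle libraries 1 to 5. CK2i 1, 2 and 5 were below all vehicle libraries, CK2i 4 just below them, and CK2i 3 within their range. The log2 difference was -0.44 ± 0.13 (SE, edgeR adjusted p = 0.0504); in FPKM the means were 6.86 ± 1.22 in CK2i libraries and 7.85 ± 0.648 in vehicle libraries (SD, n = 5 each), a smaller gap than in counts. DESeq2 called Lss lower (DESeq2 adjusted p = 0.0134), and edgeR did so without CK2i 3 (adjusted p = 0.0209) or CK2i 4 (adjusted p = 0.0423). With the CK2i group reduced to libraries 1, 3 and 4 the Lss difference was -0.28, and with 1 surrogate variable it was -0.11 (edgeR adjusted p = 0.220 and 0.798). Sqle, the squalene epoxidase that acts as a slow step of the route, and Msmo1, a demethylating oxidase, both differed by -0.36 and did not pass (edgeR adjusted p = 0.161 and 0.241). Fdft1, squalene synthase, and Cyp51, the lanosterol demethylase, both differed by -0.30, and Hsd17b7 and Nsdhl, which also act in demethylation, by -0.29 and -0.22 (edgeR adjusted p = 0.177, 0.272, 0.209 and 0.104). Of the last steps, the reductase gene Dhcr7 differed by -0.18, the desaturase gene Sc5d by -0.08 and the isomerase gene Ebp by -0.02 (edgeR adjusted p = 0.148, 0.529 and 0.878).

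**Figure D3:**
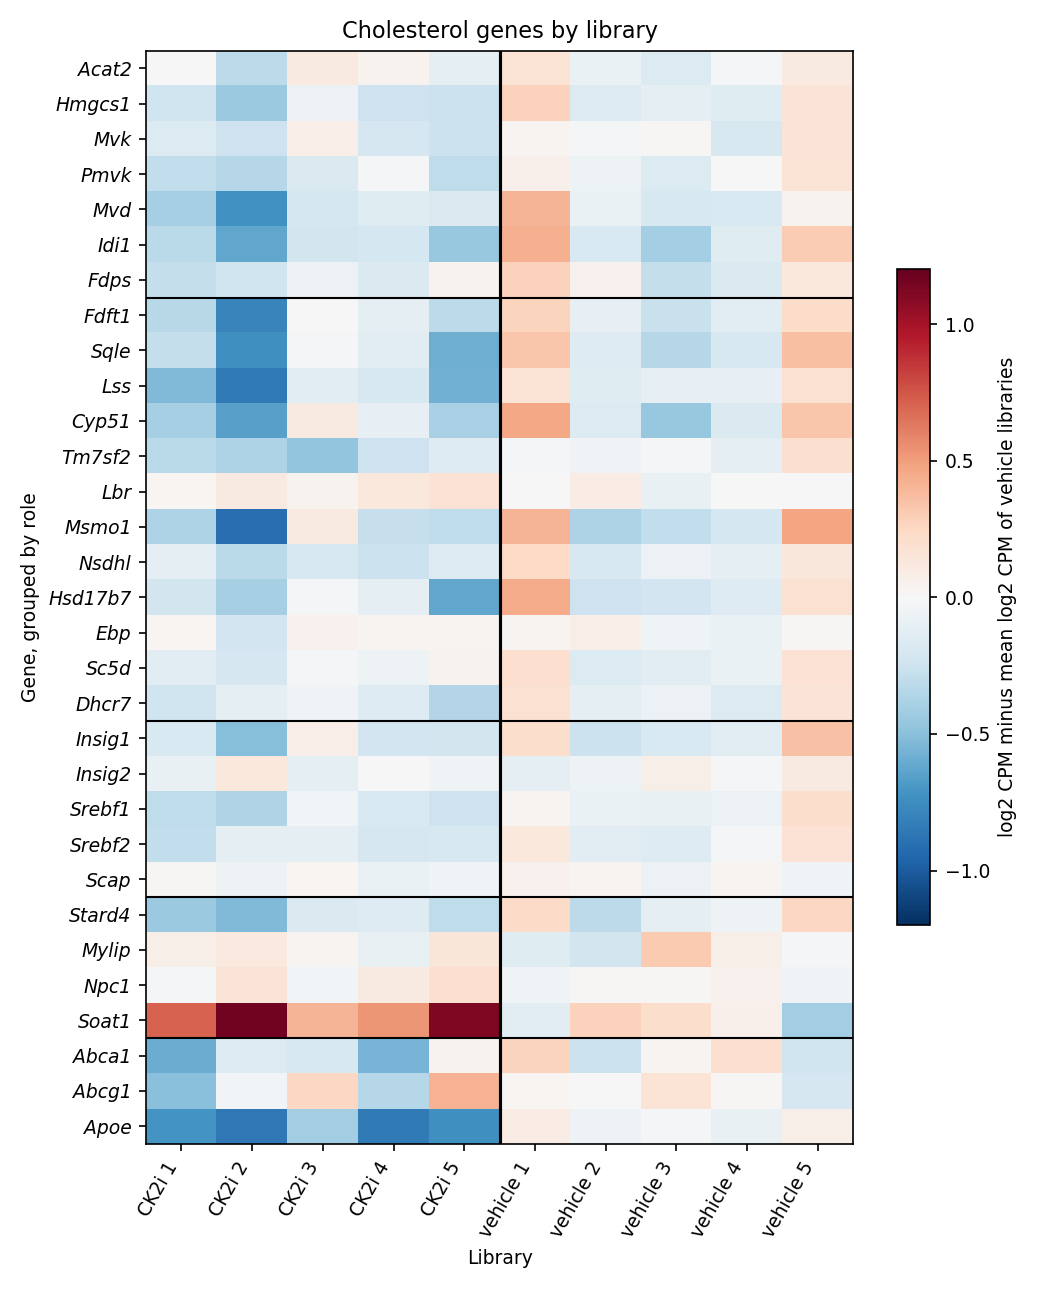
Log2 CPM of each gene minus its mean over the 5 vehicle libraries (colour scale, red higher and blue lower), with libraries in columns (CK2i 1 to 5, then vehicle 1 to 5) and the 31 genes in rows, separated by role. Most synthesis enzymes are blue in CK2i 2 and red in vehicle 1 and vehicle 5, Soat1 is red in every CK2i library and Apoe blue in every CK2i library.

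The synthesis enzymes varied together from library to library, within groups as well as between them. Among vehicle libraries, vehicle 1 was highest for 11 and vehicle 5 for 6 of the 19 enzymes, and neither was lowest for any. Among CK2i libraries, CK2i 2 was lowest for 13 enzymes and CK2i 3 highest for 11. The mean log2 difference of the 19 enzymes from the vehicle mean was -0.24, -0.44, -0.06, -0.13 and -0.25 in CK2i libraries 1 to 5, against 0.23, -0.11, -0.18, -0.13 and 0.18 in vehicle libraries 1 to 5. The groups overlapped on this measure, since CK2i 3 lay above vehicle 2, 3 and 4, and CK2i 4 lay above vehicle 3. Without vehicle 1 the median over all 31 members was -0.16, without vehicle 5 it was -0.17, and with the CK2i group reduced to libraries 1, 3 and 4 it was -0.16, each beside -0.22 with all libraries. The median was -0.25 without vehicle 2 or vehicle 3, and -0.24 without vehicle 4 or CK2i 3. With 1 surrogate variable the median was -0.06. The most variable enzymes in vehicle libraries were Msmo1, Cyp51 and Idi1, with coefficients of variation of 28.8%, 26.8% and 24.7%, while Lbr and Ebp were the steadiest at 4.30% and 4.38%.

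Other marker lists were read beside that pattern, where 6.43% of all tested genes passed as higher and 6.76% as lower. Of 10 proliferation markers 1 passed, Mki67, which was higher in CK2i, and the list's sums were 4473 to 5438 CPM in CK2i libraries and 4285 to 4590 CPM in vehicle libraries. Of 10 erythroid markers 4 were higher (Hbb-bs, Hba-a2, Slc4a1 and Alas2) and 1 was lower (Ermap), with sums of 1407 to 1865 CPM in CK2i libraries and 1293 to 2060 CPM in vehicle libraries. The mean log2 difference of the erythroid list was 0.17 to 0.67 in CK2i libraries, against 0.42 in vehicle 5 and -0.31 to 0.03 in the other vehicle libraries. That of the megakaryocyte list was lowest in CK2i 2, at -1.2, the library lowest in the enzymes. Within the CK2i group, CK2i 5 was next lowest in both lists and CK2i 3 was the highest in both. CK2i libraries 1, 3, 4 and 5 were at -0.43, -0.13, -0.74 and -0.98 for the megakaryocyte list. For the enzymes they were at -0.24, -0.06, -0.13 and -0.25, so CK2i 1 and CK2i 4 changed places. The vehicle libraries were ordered differently in the 2 lists. Vehicle 3, the lowest vehicle library in the enzymes at -0.18, was at 0.28 for the megakaryocyte list. The part of these cell types in the enzyme levels was not tested.

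**Figure D4:**
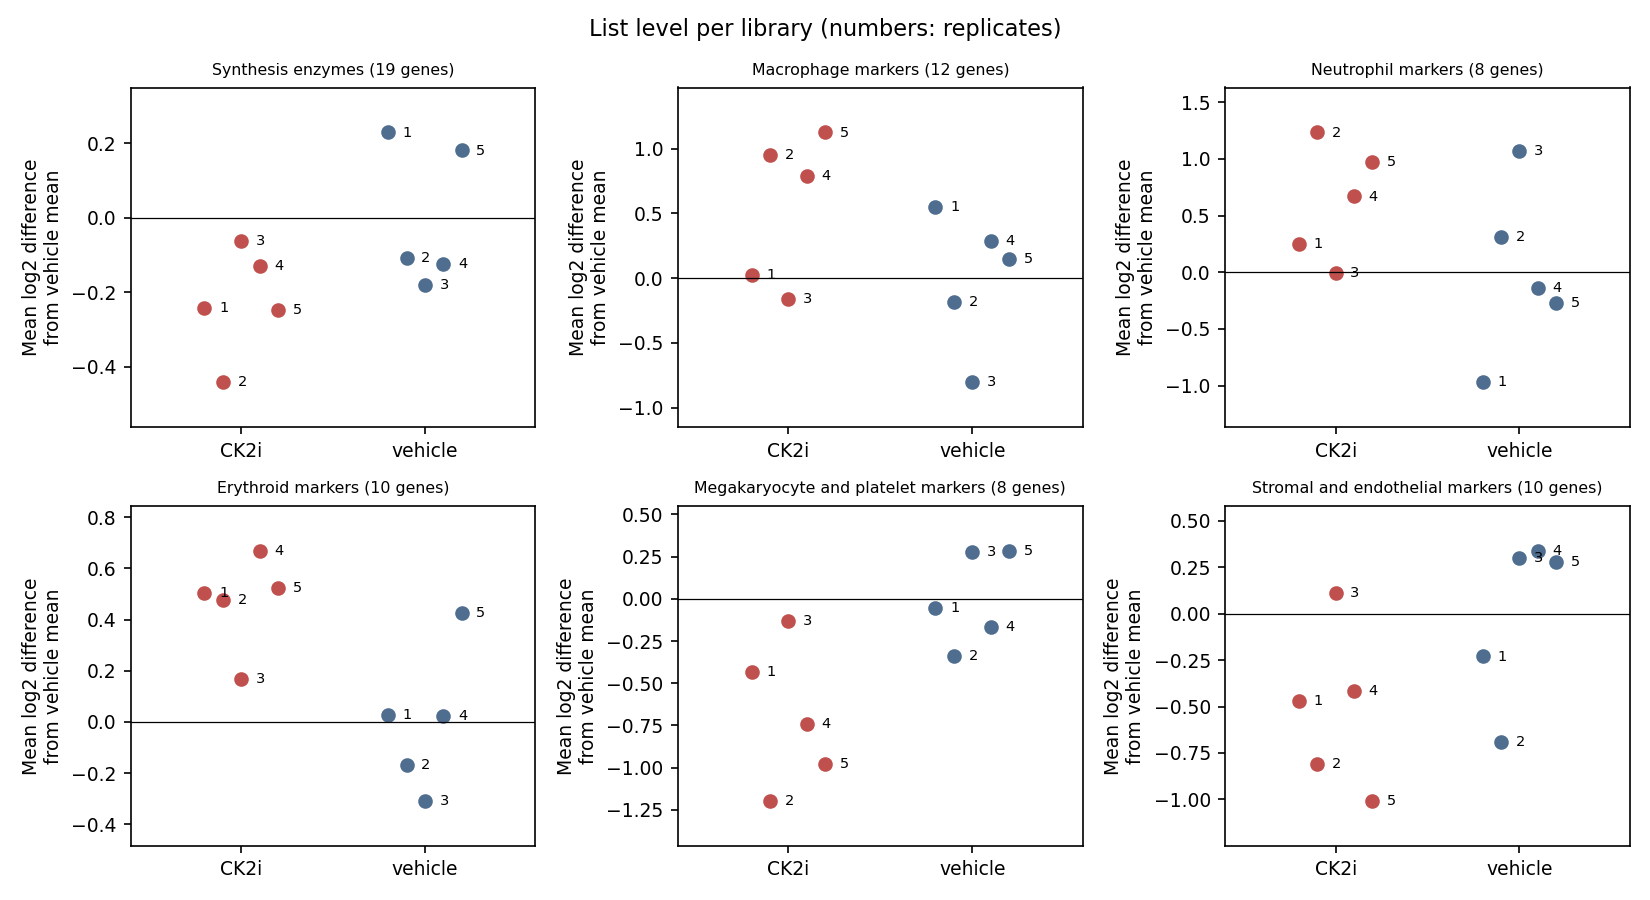
Mean log2 difference from the vehicle mean (y axis) over the 19 synthesis enzymes and over the markers of 5 cell types, in each library of the CK2i and vehicle groups (x axis, points numbered by replicate). The enzyme means run from -0.44 to -0.06 in CK2i libraries and from -0.18 to 0.23 in vehicle libraries and overlap. CK2i 2, the lowest for the enzymes, is also the lowest for megakaryocyte and platelet markers. Vehicle 3, the lowest vehicle library for the enzymes, is at 0.28 for megakaryocyte and platelet markers.

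None of the 5 genes of the SREBP control system passed edgeR's test at an adjusted p of 0.05. At an unadjusted p under 0.05, 2 of them were lower, Srebf1 and Srebf2, against 16.6% of all tested genes. Srebf1, whose product favours genes of fatty acid synthesis, was at 113, 109, 137, 123 and 118 CPM in CK2i libraries 1 to 5, against 143, 132, 131, 133 and 162 CPM in vehicle libraries 1 to 5. Only CK2i 3 reached the vehicle range, and the log2 difference was -0.23 ± 0.07 (SE, edgeR adjusted p = 0.0625). DESeq2 called Srebf1 lower (DESeq2 adjusted p = 0.0332). Srebf2, whose product favours the cholesterol genes, differed by -0.19 ± 0.07 (SE, edgeR adjusted p = 0.0879), and its ranges of 60.9 to 69.6 CPM in CK2i libraries and 67.2 to 84.6 CPM in vehicle libraries overlapped. Insig1, itself a known SREBP target, differed by -0.22 ± 0.13, whereas Insig2 and Scap differed by -0.02 ± 0.07 and -0.03 ± 0.04 (SE, edgeR adjusted p = 0.264, 0.869 and 0.570). Transcript levels do not report how much SREBP protein was cut and active.

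**Figure D5:**
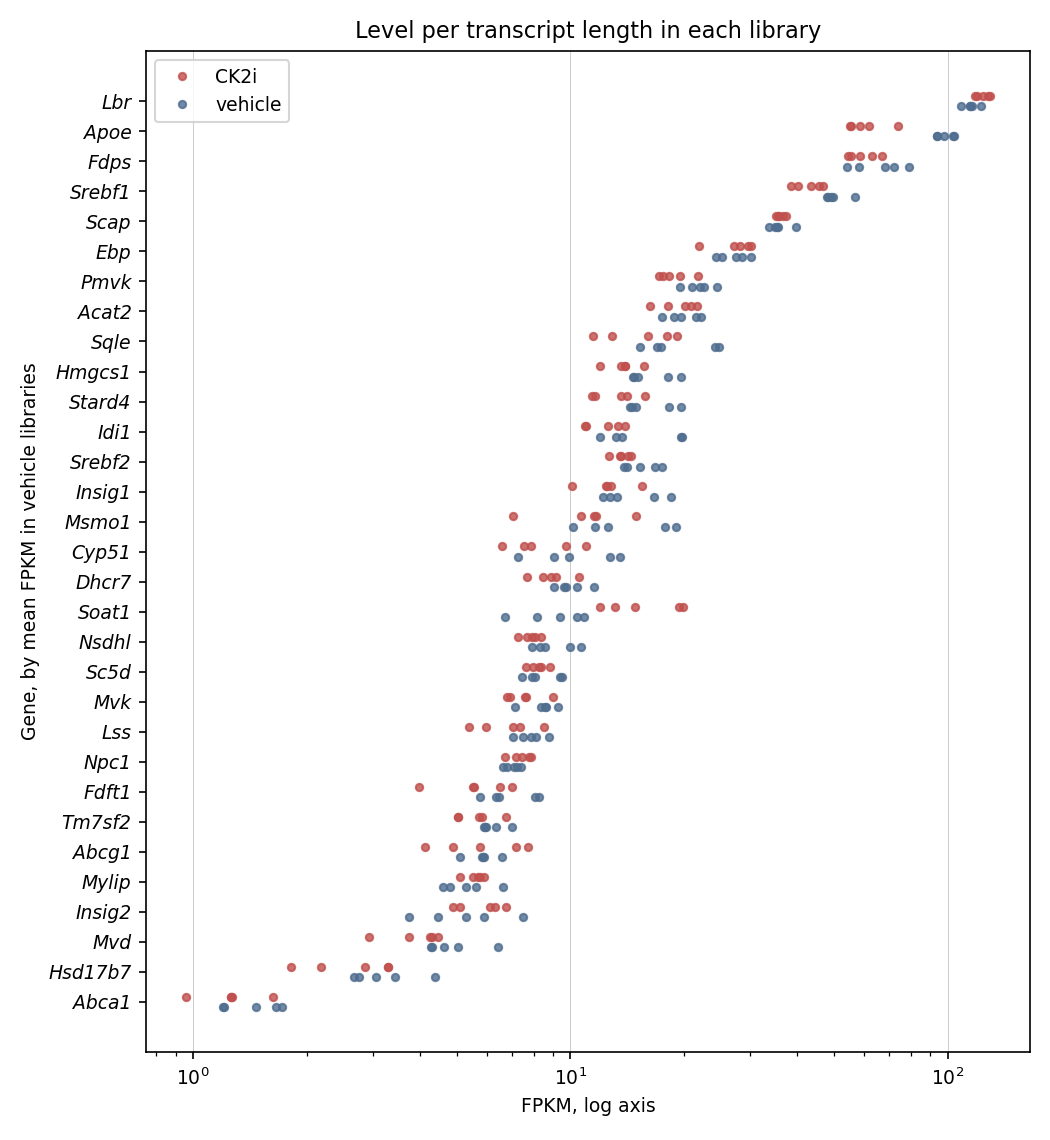
FPKM (x axis, log scale) of each of the 31 genes in every library, with genes on the y axis ordered by mean FPKM in vehicle libraries; red points are CK2i libraries and blue points vehicle libraries. Lbr is the highest and Abca1 the lowest gene in both groups, and Soat1 moves up the order in CK2i libraries, with a mean FPKM of 15.9 against 9.11 in vehicle libraries.

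Per transcript length, the levels of the 31 genes spanned from 1.28 ± 0.238 FPKM for Abca1 to 124 ± 4.89 FPKM for Lbr in CK2i libraries, and from 1.45 ± 0.244 to 115 ± 5.00 FPKM in vehicle libraries (SD, n = 5 each). Apoe came after Lbr, at 61.0 ± 7.78 FPKM in CK2i libraries and 98.5 ± 4.89 FPKM in vehicle libraries, and in CK2i libraries its range overlapped that of Fdps, at 59.8 ± 5.31 FPKM. Among control genes Srebf1 exceeded Srebf2 in FPKM by 2.70 to 3.42 times in CK2i libraries and by 2.97 to 3.46 times in vehicle libraries. Of the enzymes, Hsd17b7 and Mvd were the lowest, at 2.69 ± 0.658 and 3.93 ± 0.621 FPKM in CK2i libraries and 3.26 ± 0.694 and 4.93 ± 0.889 FPKM in vehicle libraries. Soat1 held rank 9 of 31 in CK2i libraries and rank 18 of 31 in vehicle libraries.

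The sequence just before the start of transcription is shown for the 3 genes that passed and for Hmgcs1, a textbook SREBP target, because SREBPs are known to act there together with the CCAAT-binding factor NF-Y and with Sp1 at GC boxes. The windows, from RefSeq on GRCm38.p6, run from 250 bases before to 50 bases after the annotated start and were searched on both strands for the sterol element TCACNCCAC, the CCAAT box CCAAT and the GC box GGGCGG, each counted whether or not it overlapped another. They are Apoe at chr7:19699139-19699438, Tm7sf2 at chr19:6067801-6068100, Soat1 at chr1:156474279-156474578, all minus strand, and Hmgcs1 at chr13:119690101-119690400, plus strand, printed 5′ to 3′ on the gene's strand with matches in capitals. The RefSeq start of Tm7sf2 lies 523 bases from the GENCODE gene start.
Apoe: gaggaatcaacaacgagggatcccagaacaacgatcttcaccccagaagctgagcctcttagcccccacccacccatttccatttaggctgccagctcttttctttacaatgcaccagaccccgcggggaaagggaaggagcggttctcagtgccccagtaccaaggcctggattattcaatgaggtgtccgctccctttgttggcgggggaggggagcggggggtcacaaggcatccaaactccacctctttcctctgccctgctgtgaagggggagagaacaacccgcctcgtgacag
Tm7sf2: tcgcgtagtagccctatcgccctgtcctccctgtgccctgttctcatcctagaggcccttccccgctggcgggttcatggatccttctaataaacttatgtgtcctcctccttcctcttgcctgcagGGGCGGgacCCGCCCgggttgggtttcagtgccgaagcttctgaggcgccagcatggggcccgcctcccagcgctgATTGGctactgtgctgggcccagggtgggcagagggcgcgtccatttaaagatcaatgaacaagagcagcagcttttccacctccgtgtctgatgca
Soat1: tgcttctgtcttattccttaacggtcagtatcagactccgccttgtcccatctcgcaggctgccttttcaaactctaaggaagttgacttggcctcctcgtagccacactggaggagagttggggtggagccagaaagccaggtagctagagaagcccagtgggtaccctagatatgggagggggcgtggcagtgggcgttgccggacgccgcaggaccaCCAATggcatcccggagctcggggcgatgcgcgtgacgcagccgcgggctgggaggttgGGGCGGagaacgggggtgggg
Hmgcs1: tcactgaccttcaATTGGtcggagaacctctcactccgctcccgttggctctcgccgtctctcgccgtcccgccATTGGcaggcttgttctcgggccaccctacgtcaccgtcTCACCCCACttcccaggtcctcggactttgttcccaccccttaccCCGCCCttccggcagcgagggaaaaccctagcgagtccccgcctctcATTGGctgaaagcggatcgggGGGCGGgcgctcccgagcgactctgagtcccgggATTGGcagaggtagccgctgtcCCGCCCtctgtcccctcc

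Hmgcs1 held the sterol element at -137 from its start, CCAAT boxes at -237, -176, -45 and 11, and GC boxes at -92, -24 and 33. Tm7sf2 held a CCAAT box at -47 and GC boxes at -123 and -114, and Soat1 a CCAAT box at -30 and a GC box at 30. The Apoe window held none of the 3 motifs. Promoters were found for 25 of the 31 genes. In these the sterol element occurred in 1 (4.00%), a CCAAT box in 21 (84.0%) and a GC box in 23 (92.0%), against 1.36%, 42.9% and 67.1% of the 10407 tested genes with a promoter in the table. Apoe was thus among the 4 members without a CCAAT box, with Acat2, Scap and Abca1, and among the 2 without a GC box, with Pmvk. These are matches of letters in a fixed window, not binding sites, and the absence of a match says only that the letters are not in that window.

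The neighbouring pathways were read from 5 lists of 78 genes, of which 75 were tested. Of these, 8 passed (10.7%), 4 higher and 4 lower, which did not exceed the background of 13.2%, and the median log2 difference was -0.01. In fatty acid synthesis and desaturation 2 of 18 were lower, against 6.76% of all tested genes. Acss2, which makes acetyl-CoA from acetate, fell by 0.45 ± 0.09 (SE, edgeR adjusted p = 0.0177), with 29.7 to 40.7 CPM in CK2i libraries and 47.2 to 53.9 CPM in vehicle libraries. Fads1, a desaturase of polyunsaturated fatty acids, fell by 0.35 ± 0.09 (SE, edgeR adjusted p = 0.0319), while its neighbour Fads2 differed by -0.41 ± 0.13 and did not pass (edgeR adjusted p = 0.0631). Acss2 passed in all 10 fits without 1 library and Fads1 in 5 of them. Without CK2i 2 and 5, Acss2 still passed at -0.32 and Fads1 did not at -0.27 (edgeR adjusted p = 0.0371 and 0.159). With 1 surrogate variable neither passed, at -0.21 and -0.19 (edgeR adjusted p = 0.293 and 0.552). The large synthesis genes Fasn, Acaca and Acly differed by 0.12, 0.24 and -0.05 and did not pass (edgeR adjusted p = 0.351, 0.0641 and 0.446).

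Among lipoprotein receptors and sterol transporters 2 of 18 tested genes were higher and 1 lower, against 6.43% and 6.76% of all tested genes. Lrp8, an apolipoprotein E receptor, rose by 0.44 ± 0.08 (SE, edgeR adjusted p = 0.0127), with 38.0 to 45.4 CPM in CK2i libraries and 26.4 to 34.6 CPM in vehicle libraries, and passed in all 10 fits without 1 library. Lrp1, a large endocytic receptor that also binds apolipoprotein E, rose by 0.82 ± 0.20 (SE, edgeR adjusted p = 0.0301), with 57.1 and 49.6 CPM in CK2i 2 and 5, 24.4 to 36.4 CPM in CK2i 1, 3 and 4, and 19.9 to 28.5 CPM in vehicle libraries. Lrp1 passed in 5 of those fits. Without CK2i 2 and 5 the Lrp1 difference was 0.47, and with 1 surrogate variable 0.20 (edgeR adjusted p = 0.132 and 0.675). Gramd1c, of a family of proteins that carry sterol from the plasma membrane to the endoplasmic reticulum, fell by 0.62 ± 0.13 (SE, edgeR adjusted p = 0.0191), again in all 10. Without CK2i 2 and 5 neither Lrp8, at 0.35, nor Gramd1c, at -0.48, passed (edgeR adjusted p = 0.0673 and 0.0832). With 1 surrogate variable they were at 0.35 and -0.33 (edgeR adjusted p = 0.231 and 0.370). Msr1 was too low to test.

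Of 14 oxysterol and LXR genes tested 1 passed, against 13.2% of all tested genes. It was Lpl, lipoprotein lipase, which rose by 0.89 ± 0.24 (SE, edgeR adjusted p = 0.0375) and passed in 2 of 10 fits without 1 library. Without CK2i 2 and 5 the Lpl difference was 0.50, and with 1 surrogate variable 0.19 (edgeR adjusted p = 0.177 and 0.792). The receptor genes Nr1h2 and Nr1h3 differed by 0.08 and 0.24 and did not pass (edgeR adjusted p = 0.169 and 0.30), and Ch25h and Cyp7b1 were too low to test. Of 11 genes of the SREBP activation and degradation machinery 1 was higher and 1 lower, against 6.43% and 6.76% of all tested genes. Erlin1, a membrane protein of the endoplasmic reticulum that restrains SREBP activation, rose by 0.28 ± 0.07 (SE, edgeR adjusted p = 0.0263). Sec23a, a coat subunit of the vesicles that leave the endoplasmic reticulum, fell by 0.20 ± 0.05 (SE, edgeR adjusted p = 0.0365). With 1 library removed at a time, Erlin1 passed 4 and Sec23a 3 of 10 times. Without CK2i 2 and 5, Erlin1 was at 0.19 and Sec23a at -0.15 (edgeR adjusted p = 0.133 and 0.150). With 1 surrogate variable they were at 0.11 and -0.10 (edgeR adjusted p = 0.516 and 0.580). Of 14 genes of the isoprenoid branches that leave the pathway before squalene, none passed edgeR's test at an adjusted p of 0.05. At an unadjusted p under 0.05, 3 of them were lower, against 16.6% of all tested genes. The median of the 14 genes was -0.03, beside -0.23 for the mevalonate enzymes upstream.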

How the data were processed

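Per the labels' protocols, a stranded total RNA kit was used and reads were paired, of 75 bases. Per the submitters' processing notes, Bowtie2, RSEM 1.2.31 and DESeq2 were used with build mm10 (GRCm38). The transcript annotation, strand setting and filters were not stated in the labels. One deposited table holds estimated counts, already whole, and FPKM, both made by the authors. It lists 38887 identifiers, 37570 of which matched a GENCODE M21 symbol, and 2 empty lines, which were left out. RSEM divides ambiguous reads by its model. By that annotation 9 members share exonic bases with a gene on the opposite strand and 4 with one on the same strand.

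The test was edgeR 4.0.16 (R 4.3.3) quasi-likelihood on the deposited counts, with TMM scaling, group as the only term and filterByExpr (minimum count 10), two-sided, with Benjamini-Hochberg adjustment over 14346 genes. The standard error is the log2 difference divided by the square root of F. Alternatives used limma 3.58.1 on log2(FPKM + 1) and log2(FPKM + 0.1), DESeq2 1.42.0, 1 surrogate variable from sva 3.50.0, RLE scaling, no filter, the replicate number as a block, each library left out in turn, and CK2i 2 and 5 left out together. The script was tested on simulated counts. Depth was at least 34127674 counts per library, so with a biological coefficient of variation of 14.2% the spread between libraries limits precision. Within groups, pairs of libraries differed beyond sampling noise (chi-square per degree of freedom 10.3 to 67.8). The members and lists were chosen with earlier results of these data known. One marker gene was left out of its list and is not reported here. Named genes are all members, the pathway and marker genes that passed, and markers too low to test; Apoc1, Soat2, Fads2, Fasn, Acaca, Acly, Nr1h2, Nr1h3, Vps51, Vwf, Msr1, Ch25h and Cyp7b1, and the gene pairs compared as ratios, were named after their values were seen.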

Additional observations from a re-analysis of the deposited data

Results flagged for a closer look

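Of 62 sets of 5 values (31 genes in each group), 3 had a library far from the other 4 by Dixon's criterion for 5 values (0.71), where chance gives about 5% of sets. Apoe was at 64.5 CPM in CK2i 3, with the other CK2i libraries at 47.4 to 52.4 CPM; without CK2i 3 the Apoe difference was -0.79 ± 0.05 on the log2 scale (SE, edgeR adjusted p = 0.000409). Mvk was at 12.2 CPM in CK2i 3, with the others at 9.67 to 10.3 CPM. Ebp was at 33.4 CPM in CK2i 2, with the others at 39.7 to 40.4 CPM.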

How the results depend on the processing

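Apoe passed in all 18 alternatives to the reported fit, with differences of -0.79 to -0.54. The members passing numbered 3; they were 7 by DESeq2, 1 with 1 surrogate variable, 1 with the CK2i group reduced to libraries 1, 3 and 4, and 1 to 5 without 1 library (1 without CK2i 5 or vehicle 1, 5 without CK2i 3). All genes passing numbered 1892; they were 3176 by DESeq2, 1139 with the replicate number as a block, 1005 and 1025 by limma on log2(FPKM + 1) and log2(FPKM + 0.1), 30 with 1 surrogate variable and 175 with CK2i 1, 3 and 4. Without 1 library they were 446 to 3198: 617 without CK2i 2, 3198 without CK2i 3, 446 without CK2i 5, and 458, 758, 528 and 546 without vehicle 1, 3, 4 and 5. Of the 75 pathway genes tested 8 passed; they were 14 by DESeq2, 5 by limma with either pseudocount, 1 with CK2i 1, 3 and 4, 3 to 14 without 1 library (3 without CK2i 2, CK2i 5, vehicle 1 or vehicle 5, 4 without vehicle 3 or 4, 14 without CK2i 3), and 0 by edgeR with 1 surrogate variable, where 6 had an unadjusted p under 0.05. That variable had a correlation of -0.70 with the group. No clear pairing by replicate number was seen: same-numbered libraries correlated by -0.16 to 0.23 in their deviations from group means. CK2i 1 and 2 correlated best with the vehicle library of the same number, and CK2i 3, 4 and 5 did not. These correlations cannot exclude pairing. With the replicate block 2 members passed, Apoe and Soat1.

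No member that passed changed sign. With 1 surrogate variable, members that had not passed turned to 0.16 (Acat2), 0.0068 (Mvk), 0.037 (Fdft1), 0.082 (Sqle), 0.10 (Cyp51), 0.10 (Msmo1), 0.061 (Hsd17b7), 0.068 (Ebp), 0.076 (Insig1), 0.0024 (Scap), -0.026 (Mylip) and -0.050 (Npc1). By limma on log2(FPKM + 1) and log2(FPKM + 0.1), Ebp turned to 0.0080 and 0.0080, Insig2 to 0.12 and 0.15, and Scap to 0.0115 and 0.0119. With CK2i 1, 3 and 4, Acat2 was 0.042, Ebp 0.031 and Mylip -0.0042. Without 1 library, Acat2 ran from -0.10 to 0.0064, Ebp from -0.035 to 0.034, Insig2 from -0.058 to 0.0069, Mylip from -0.0059 to 0.13 and Abcg1 from -0.13 to 0.10. The cause of these changes was not tested.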
